A study of Mus musculus with 4 samples.

Results

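Cells of the mouse hippocampal neuronal line HT22 that carried an empty vector were compared with cells that carried a control short hairpin RNA (shRNA), across all genes. Members of the comparison were the genes with at least 10 counts in 2 or more of the 4 libraries of these groups, which left 11899 of 16846 genes, and 4947 were not tested. Each group had 1 sample in the labels and 2 numbered libraries in the count table, and the 4 libraries held between 18633842 and 19622095 counts. The labels do not say that the libraries came from separate cultures, so the spread behind each p-value is only that between these libraries and may be technical.

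The control shRNA cells (labelled sh-Ctrl) held a hairpin without the target Ntoco, a long noncoding RNA, and the empty vector cells (labelled Vector) held the backbone without Ntoco. Neither group is labelled as changed in Ntoco. The series also held cells with an shRNA against Ntoco (sh-Ntoco) and cells with a vector for Ntoco (Lv-Ntoco), and their 4 libraries entered the model only to share the estimate of spread, except where named. No untreated HT22 cells were in the series. The vector columns are named pcDNA, a plasmid, and the overexpression label reads Lv, so plasmid and virus could not be distinguished. Construct, delivery and handling therefore cannot be told apart in what follows, and neither group serves as an untouched baseline for the other. The titles number the lines of the 4 groups HT22, HT23, HT24 and HT25, while the cell line field gives HT22 throughout.

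Defining markers of neurons were close to absent. Of 11 neuronal markers with a row, 3 were tested and 1, Eno2, had a mean of at least 1 FPKM (fragments scaled to gene length and library size), and the summed level of the list was 5.38 and 7.88 FPKM in the control libraries and 4.88 and 7.59 FPKM in the vector libraries. Markers of fibroblasts and meninges summed to 5541 and 3461 FPKM in the control libraries and to 1133 and 3244 FPKM in the vector libraries. Most of this sum came from S100a4, a calcium-binding protein (3697 and 2125 FPKM against 518 and 1940.0 FPKM), and Vim, an intermediate filament gene (1216 and 689 FPKM against 380.0 and 876 FPKM). Fibroblast markers did not go the same way. Dcn and Lum were at 0 FPKM in all 4 compared libraries. The collagen Col1a1 was at 118 and 107 FPKM in the control libraries against 38.0 and 69.2 FPKM in the vector libraries. Its partner chain Col1a2 was at 503 and 533 FPKM against 191 and 355 FPKM. The microglia and macrophage list summed to between 10.2 and 13.1 FPKM in these 4 libraries, and Ptprc, the pan-leukocyte marker, was at 0 CPM (counts scaled to library size) in all 4 of these libraries. In bulk RNA of this kind, fewer cells of a type and less RNA per cell cannot be told apart.

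Type I interferons are secreted when cells detect foreign RNA or DNA. They signal through the receptor Ifnar1 and Ifnar2 to a complex of transcription factors that holds Stat2 and Irf9, which binds interferon response elements and turns on antiviral genes, antigen presentation and the sensors themselves. NF-kB is another arm of innate sensing and drives chemokines and cytokines, while sterol synthesis is set by the SREBP transcription factors.

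Many of the largest differences between the vector and the control shRNA cells lay in interferon-induced genes. Across 7 lists of sensors, signalling factors and interferon-induced effectors, 113 genes had a row and 104 were tested. Both vector libraries lay above both control libraries in 93 of the 113 genes and below in 3, while the libraries overlapped in 17. Over all rows the corresponding shares were 21.1% above and 21.4% below, and over the genes tested 24.8% and 26.5%. The counts given for each list below are to be read beside these shares. The median log2 ratio of vector over control was 3.66 over the 104 genes tested and -0.002 over all 11899 genes. A log2 ratio above 3 was found in 124 genes, of which 61 were in these lists, and one below -3 in 3 genes. Of the 113, 8 were tested only because they reached the count filter in the vector group, and they were bound to differ.

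**Figure D1:**
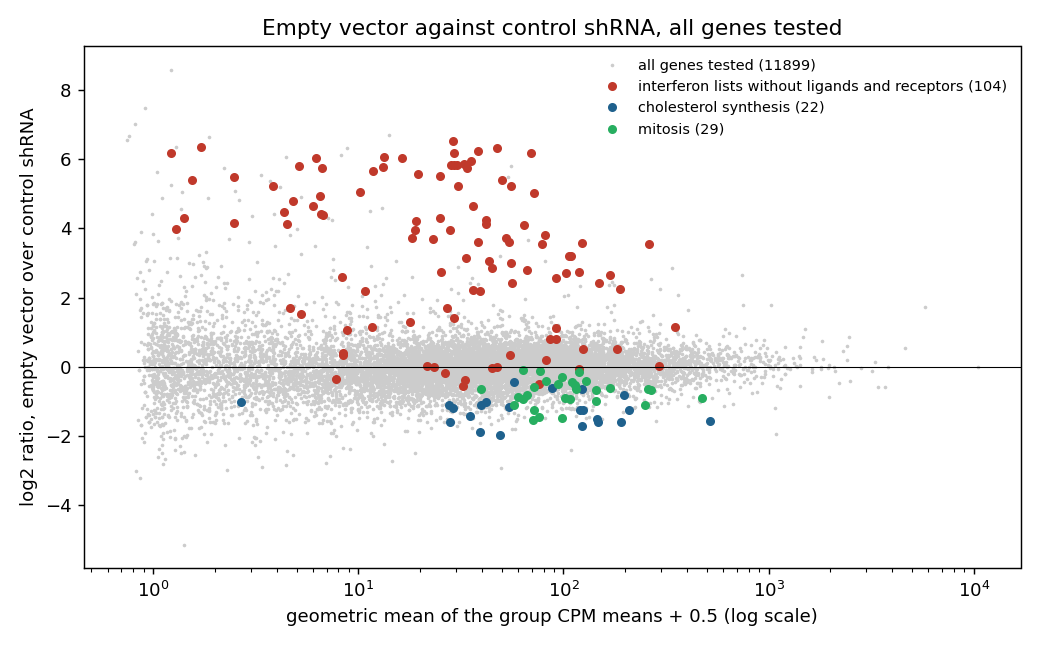
Log2 ratio of empty vector over control shRNA (vertical) against the geometric mean of the group CPM values plus 0.5 (horizontal, log scale) for the 11899 genes tested, with 104 interferon pathway genes in red, 22 cholesterol synthesis genes in blue and 29 mitosis genes in green. Most red points lie above a log2 ratio of 1 with a median of 3.66, whereas the blue points lie below 0 with a median of -1.24.

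With edgeR's quasi-likelihood test over all 8 libraries, 0 of 11899 genes (0%) passed an adjusted p of 0.05, and the lowest adjusted p was 0.169. An unadjusted p under 0.05 was found for 1508 genes (12.7%), of which 778 were higher (6.54%) and 730 lower (6.13%) in the vector cells. With only the 4 compared libraries in the model, 129 genes passed (1.08%), 119 higher (1%) and 10 lower (0.084%). DESeq2's Wald test over all 8 libraries called 283 of 11668 genes (2.43%), 200 higher (1.71%) and 83 lower (0.711%), and 113 genes were called by both of these fits. The shared spread held a large gap between the 2 Ntoco overexpression libraries. Over the interferon genes their median absolute log2 difference was 2.677, against 0.415 between the vector libraries and 0.381 between the control libraries. Over all genes tested it was 0.237, 0.305 and 0.239 in the same order. Between the Ntoco shRNA libraries it was 0.407 over the interferon genes and 0.378 over all genes tested, the largest of the 4 groups over all genes. Of the 104 interferon genes tested, 71 passed with the 4 compared libraries and 72 with DESeq2, all of them higher. Over all 11899 genes, edgeR called 98 without overexpression library 1, 95 without overexpression library 2 and 96 without both. These counts are given for the groups of genes below as passing with the 4 compared libraries or with DESeq2, while no gene passed in the model of all 8 libraries. Standard errors (SE) below come from the model of all 8 libraries. They therefore hold the gap between the overexpression libraries and that between the Ntoco shRNA libraries as well.

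Within the list of sensors and adaptors, RNA sensors had high log2 ratios in the vector cells, and the DNA sensor Cgas and the adaptors had lower ones. The gap between these genes was not tested. It does not extend to all DNA-binding proteins, as the Ifi200 genes, described below, had a median log2 ratio of 4.15. Of 15 sensor and adaptor genes with a row, 10 were higher and 2 lower in both vector libraries, with a median log2 ratio of 1.67 over 14 tested, and 6 passed with the 4 libraries and 5 with DESeq2, all higher. Ddx58, which encodes the RNA sensor RIG-I, had 9.86 and 14.9 CPM in the control libraries against 306 and 495 CPM in the vector libraries (log2 ratio 5.02, SE 1.11). Ifih1, the long double-stranded RNA sensor MDA5, had 5.40 and 8.50 against 171 and 180.2 CPM (log2 ratio 4.66, SE 1.03). Neither gene overlapped between the groups, and both vector values lay far above both control values. Zbp1, a sensor of Z-form nucleic acids, had 0.996 and 4.15 CPM in the control libraries against 122 and 125 CPM in the vector libraries (log2 ratio 5.58, SE 1.58). The double-stranded RNA kinase Eif2ak2, known as PKR, and the RNA editor Adar were at log2 ratios of 2.66 (SE 0.60) and 2.25 (SE 0.52). Ddx58, Ifih1, Zbp1, Eif2ak2 and Adar passed with the 4 libraries and with DESeq2.

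The cytosolic DNA sensor Cgas differed less. It had 9.18 and 5.75 CPM in the control libraries against 16.9 and 16.5 CPM in the vector libraries (log2 ratio 1.16, SE 0.43), with no overlap, and passed in neither of these fits. The toll-like receptor adaptor Myd88 had 56.6 and 72.6 against 114 and 110.5 CPM (log2 ratio 0.79, SE 0.23) and also passed in neither. The 2 genes below the control were the signalling adaptors Sting1, which acts downstream of Cgas, and Mavs, which acts downstream of RIG-I and MDA5, and they were named after their values were seen. Sting1 had 39.7 and 34.5 CPM in the control libraries against 31.6 and 25.8 CPM in the vector libraries (log2 ratio -0.37, SE 0.31), and Mavs 92.4 and 87.2 against 58.6 and 67.9 CPM (log2 ratio -0.51, SE 0.23). Neither passed any of the 3 fits.

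Interferon ligands were scarcely counted, and receptors differed little. Ifnb1, the gene of interferon beta, was counted at 0 and 0.104 CPM in the control libraries, 0.16 and 1.5 CPM in the vector libraries, with 0 and 2.44 CPM in the Ntoco overexpression libraries, and it was not tested because it missed the count filter. Of 9 ligand and receptor genes with a row, 5 were tested, 4 had both vector libraries higher and 0 lower, and 0 passed with the 4 libraries or with DESeq2. The receptor gene Ifnar1 had 98.7 and 100.4 CPM against 122 and 96.2 CPM, so that the groups overlapped (log2 ratio 0.13, SE 0.19), and without vector library 1 its log2 ratio was -0.049. Ifnar2 had 47.1 and 55.8 CPM against 61.0 and 65.3 CPM (log2 ratio 0.30, SE 0.21), and Il10rb, a receptor chain shared with lambda interferons, had 18.5 and 21.1 against 34.2 and 24.4 CPM (log2 ratio 0.57, SE 0.27). The list median was 0.30 on the log2 scale.

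Stat2 and Irf9, which act together in the interferon-stimulated complex, were both higher in the vector cells. Irf9, the DNA-binding subunit (Entrez Gene 16391, GRCm38.p6 chromosome 14, 55603985 to 55610030), was counted at 8.76 and 10.8 CPM in the control libraries, 142 and 199 CPM in the vector libraries, 15.4 and 15.0 CPM in the Ntoco shRNA libraries and 26.9 and 119.9 CPM in the Ntoco overexpression libraries. Its log2 ratio of vector over control was 4.13 (SE 0.65). Stat2 had 16.7 and 12.8 CPM against 108 and 137 CPM (log2 ratio 3.05, SE 0.78). Irf7, which amplifies interferon gene transcription, had 2.20 and 6.48 CPM in the control libraries against 313 and 155 CPM in the vector libraries (log2 ratio 5.75, SE 1.66). The vector libraries were far apart for Irf7, and both lay far above the control libraries. Irf1, an interferon gamma-linked factor, had 20.1 and 16.1 CPM against 63.7 and 101 CPM (log2 ratio 2.19, SE 0.43). Irf9, Stat2, Irf7 and Irf1 passed with the 4 libraries and with DESeq2. Of 16 signalling genes, 8 were higher and 1 lower in both vector libraries, with a median log2 ratio of 0.52 over 15 tested. Stat3 (0.52, SE 0.22) and the feedback inhibitor Socs1 (1.07, SE 0.47) were higher in both vector libraries without passing.

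Antiviral effectors showed a median log2 ratio of 4.03. Of 34 with a row, 31 were higher in both vector libraries, 0 lower and 3 overlapped. Of 32 tested, 22 passed with the 4 libraries and 23 with DESeq2. Among the 32, 2 were tested only because they reached the count filter in the vector group, and these were bound to be higher. Ifit1, which binds viral RNA caps, had 2.25 and 6.12 CPM in the control libraries against 261 and 371 CPM in the vector libraries (log2 ratio 6.24, SE 1.57), a 75.5-fold difference of the group means. Rsad2, known as viperin, which makes a chain-terminating nucleotide, had 1.94 and 3.58 against 163 and 348 CPM (log2 ratio 6.53, SE 1.42). In both genes all vector values exceeded all control values, and the control libraries differed from each other by a smaller ratio than the groups did. Ifit3, a partner of Ifit1, had 2.15 and 5.34 CPM against 185 and 247 CPM (log2 ratio 5.85, SE 1.49), and its near-identical copy Ifit3b means that reads may have been split between them. Oasl2, of the oligoadenylate synthetase family, had 1.94 and 4.41 CPM against 208 and 254 CPM (log2 ratio 6.18, SE 1.57). Bst2, or tetherin, which holds budding virions at the membrane, had 13.2 and 17.4 CPM in the control libraries against 299 and 225 CPM in the vector libraries (log2 ratio 4.09, SE 1.17).

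The effector with the smallest p of all genes was Ifi27, an interferon-induced mitochondrial and nuclear envelope protein (Entrez Gene 52668, GRCm38.p6 chromosome 12, 103434189 to 103440245). Its level was 37.0 and 43.0 CPM in the control libraries, 65.4 and 82.7 CPM in the Ntoco shRNA libraries, 293 and 227 CPM in the vector libraries, with 87.6 and 136 CPM in the Ntoco overexpression libraries. The vector libraries were the highest of the 8 and the control libraries the lowest. The group means were 40.0 ± 4.25 and 260.1 ± 46.2 CPM (SD, n = 2), a log2 ratio of 2.70 (SE 0.28, edgeR adjusted p 0.169, and 0.00434 with only the 4 libraries). Tor3a, a torsin ATPase induced by interferon, and Ifi35 were at log2 ratios of 2.75 (SE 0.62) and 3.13 (SE 0.75), and both passed with the 4 libraries and with DESeq2.

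The ISG15 system attaches the small ubiquitin-like protein ISG15 to other proteins. Isg15 itself was counted at 2.31 and 4.92 CPM in the control libraries, 227 and 189 CPM in the vector libraries, 3.67 and 2.17 CPM in the Ntoco shRNA libraries and 5.05 and 263 CPM in the Ntoco overexpression libraries (log2 ratio 5.84, SE 1.52, vector over control). The group means of vector and control differed 57.6-fold. Usp18, which removes ISG15 and dampens receptor signalling, had 2.88 and 7.21 CPM against 414 and 389.7 CPM (log2 ratio 6.31, SE 1.54). The ISG15 list also holds Isg20, an interferon-induced exonuclease that does not attach ISG15 (log2 ratio 1.30, SE 0.39), which passed in neither of these fits. All 6 genes of the list were higher in both vector libraries, with a median log2 ratio of 2.76. Of these, 4 passed with the 4 libraries and 3 with DESeq2. The ligase Herc6 (2.73, SE 0.72) and the conjugating enzyme Ube2l6 (2.79, SE 0.82) were among the 4.

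The promoter stretches of genes with these ratios hold the letters of the interferon response element. They are shown because the element is the site through which the complex of Stat2 and Irf9 is known to act, and the genes were picked with their values and windows in view. Each stretch is the 150 bases before an annotated gene or transcript start, 5′ to 3′ on the strand of the gene, from RefSeq (GRCm38.p6), with matches to the searched motif in capitals, which is GAAA, any 2 bases and GAAA, or on the other strand TTTC, any 2 bases and TTTC. The Isg15 stretch is chr4:156200819-156200968 on the minus strand with 3 overlapping matches, and the Ifit1 stretch is chr19:34640739-34640888 on the plus strand with 2. The Rsad2 stretch is chr12:26456453-26456602 on the minus strand with 1 match. The Igtp stretch is chr11:58199406-58199555 on the plus strand with 1, and the Gbp3 stretch is chr3:142559894-142560043 on the plus strand with 2 overlapping matches. Gbp3 has another start in RefSeq, and the stretch before that one, chr3:142560206-142560355, holds 0 matches.
Isg15: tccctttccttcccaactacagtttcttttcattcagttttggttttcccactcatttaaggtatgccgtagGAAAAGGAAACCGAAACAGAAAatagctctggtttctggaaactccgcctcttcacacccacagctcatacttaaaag
Ifit1: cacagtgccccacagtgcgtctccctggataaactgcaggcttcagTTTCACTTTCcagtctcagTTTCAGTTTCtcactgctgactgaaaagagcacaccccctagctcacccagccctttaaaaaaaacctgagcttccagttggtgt
Rsad2: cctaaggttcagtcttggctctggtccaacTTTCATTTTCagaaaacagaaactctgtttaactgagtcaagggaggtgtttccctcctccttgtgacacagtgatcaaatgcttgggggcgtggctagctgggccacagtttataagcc
Igtp: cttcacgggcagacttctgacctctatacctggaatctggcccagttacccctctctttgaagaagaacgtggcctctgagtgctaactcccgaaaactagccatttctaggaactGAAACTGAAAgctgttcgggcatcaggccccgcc
Gbp3: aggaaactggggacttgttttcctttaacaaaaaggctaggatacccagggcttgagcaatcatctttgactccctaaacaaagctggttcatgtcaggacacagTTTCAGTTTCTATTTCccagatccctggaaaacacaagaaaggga
Over windows of 250 bases before to 50 after the start, on both strands, 3.85% of the 9512 tested genes with a window held the element (366 genes), and 3.99% of all 27025 genes. It was present in 14 of 29 antiviral effectors (48.3%), 10 of 10 GTPase genes, 7 of 9 Ifi200 genes (77.8%) and 7 of 11 PARP and TRIM genes (63.6%). It was present in 4 of 12 sensors and adaptors, 2 of 15 signalling factors and 1 of 5 genes of the ISG15 list. Among genes higher with the 4 compared libraries it was in 49 of 87 (56.3%), and among lower ones in 0 of 9. A match describes the letters of the window and does not show that a factor bound there.

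The interferon-induced GTPases had a median log2 ratio of 5.35, above that of every other interferon list here. Guanylate-binding proteins and immunity-related GTPases attack membranes that enclose pathogens. Of 17 with a row, 16 were higher in both vector libraries and 0 lower, and of 16 tested 15 passed with the 4 libraries and 16 with DESeq2. Their control levels were low, and 3 of them reached the filter only in the vector group. Igtp had 3.77 and 5.81 CPM in the control libraries against 176 and 180.2 CPM in the vector libraries (log2 ratio 5.21, SE 1.30). Gbp3 had 0.839 and 2.70 against 125 and 107 CPM (log2 ratio 6.03, SE 1.52), and Gbp2 0.629 and 0.726 against 13.7 and 24.6 CPM (log2 ratio 4.81, SE 1.21). For these 3 genes both vector libraries lay far above both control libraries. Ntoco overexpression library 2 was as high, at 187.7 CPM for Igtp, 118.6 CPM for Gbp3 and 21.35 CPM for Gbp2. Overexpression library 1 had 6.229, 2.604 and 1.327 CPM in the same order. Irgm2 had 2.78 and 5.75 CPM in the control libraries against 262 and 268 CPM in the vector libraries (log2 ratio 5.95, SE 1.14). Gbp10 (4.64, SE 1.07) and the giant GTPase Gvin1 (4.14, SE 0.95) were also higher in both. Members of these clustered families have close copies, and reads may have been split among them.

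The Ifi200 genes, a cluster of DNA-binding HIN domain proteins, were higher in both vector libraries in 10 of 10 cases. The median log2 ratio of the 9 tested was 4.15, and 8 passed with the 4 libraries and 8 with DESeq2. Of the 9, 3 were tested only because they reached the count filter in the vector group, and these were bound to be higher. Ifi204 was counted at 34.4 and 40.0 CPM in the control libraries, 41.7 and 39.5 CPM in the Ntoco shRNA libraries, 186 and 258 CPM in the vector libraries, with 85.3 and 242 CPM in the Ntoco overexpression libraries (log2 ratio 2.58, SE 0.45, vector over control). Ifi202b had 28.1 and 41.6 CPM against 282 and 359.8 CPM (log2 ratio 3.20, SE 0.47). These genes have related neighbours in the cluster, and reads may have been split among them. In both genes the vector libraries and overexpression library 2 were the highest 3 of the 8. Mndal had 1.21 and 1.14 CPM against 28.7 and 21.7 CPM (log2 ratio 4.42, SE 0.87). Ifi203 (3.54, SE 0.73) and Ifi207 (5.07, SE 1.14) were higher in both vector libraries as well.

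Among interferon-linked ADP-ribosyltransferases and TRIM ubiquitin ligases, 12 of 15 genes were higher in both vector libraries and 0 lower. The median log2 ratio over 12 tested was 3.29, and 11 passed with the 4 libraries and 12 with DESeq2. Parp14, an ADP-ribosyltransferase, had 6.29 and 11.3 CPM in the control libraries against 275 and 384 CPM in the vector libraries (log2 ratio 5.22, SE 1.18). Dtx3l, a ubiquitin ligase that pairs with Parp9, had 17.5 and 21.2 against 126 and 182 CPM (log2 ratio 2.99, SE 0.75). Trim30a had 26.9 and 43.6 against 346 and 504 CPM (log2 ratio 3.59, SE 0.87). None of these 3 genes overlapped between the groups. Trim25, the ubiquitin ligase that acts on RIG-I, had 68.5 and 59.4 CPM against 289.8 and 396 CPM (log2 ratio 2.42, SE 0.47), and the antibody receptor Trim21 had a log2 ratio of 3.96 (SE 0.85). Trim56 had one of 1.69 (SE 0.34).

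**Figure D2:**
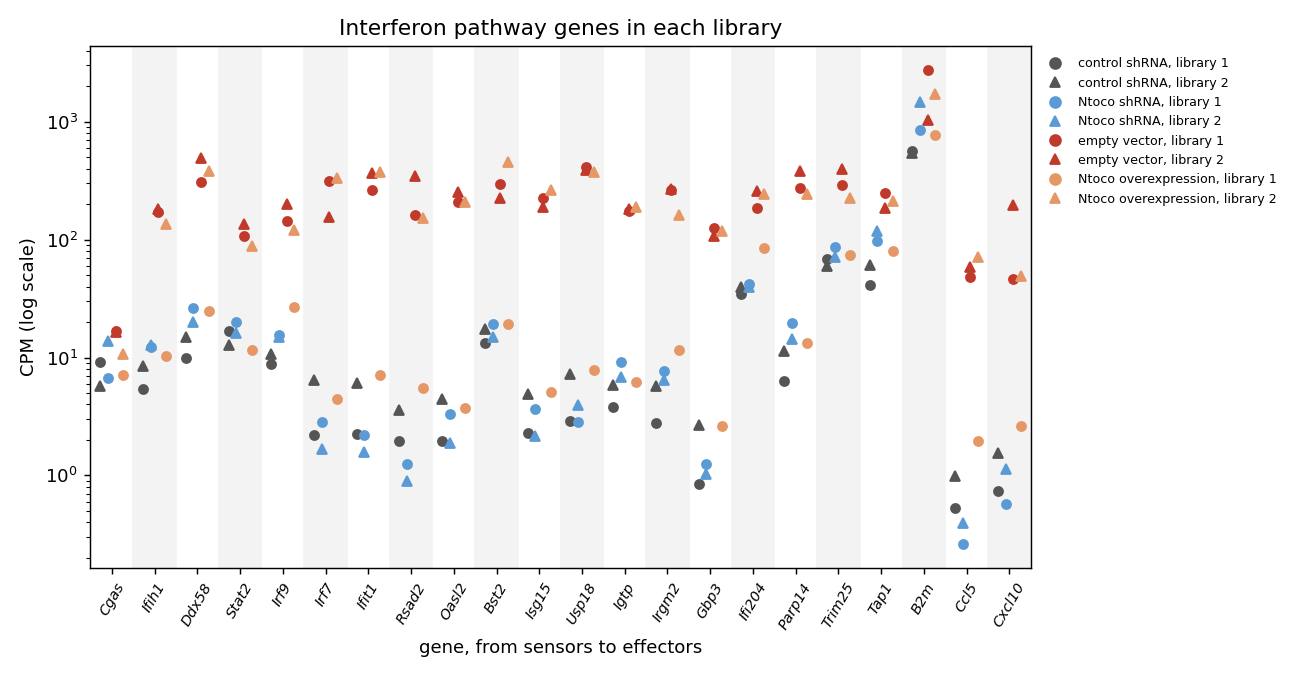
Level of 22 interferon pathway genes in each of the 8 libraries (CPM, log scale), ordered from sensors to effectors, with circles for library 1 and triangles for library 2 of each group. For Isg15 both vector libraries (189 and 227 CPM) and Ntoco overexpression library 2 (263 CPM) lie high, while the control, Ntoco shRNA and overexpression library 1 values lie between 2.17 and 5.05 CPM.

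The Ntoco overexpression libraries, which also held a vector, did not behave alike for these genes. Of the 91 tested interferon genes that were higher in both vector libraries, overexpression library 1 lay below both vector libraries in 91 and above both control libraries in 59. Overexpression library 2 lay above both control libraries in 88. Relative to the control mean, the median of the antiviral effectors was 3.55 and 3.86 (log2) in the vector libraries, 0.38 in overexpression library 1 and 3.99 in library 2. It was 0.16 and -0.15 in the Ntoco shRNA libraries.

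Class I antigen presentation genes had smaller log2 ratios, and the Ntoco shRNA libraries also lay above the control. Of 19 genes, 18 were higher in both vector libraries and 0 lower, with a median log2 ratio of 1.41 over 18 tested, and 2 passed with the 4 libraries and 8 with DESeq2. B2m, the light chain of class I molecules, was counted at 560.3 and 539 CPM in the control libraries, 856 and 1456 CPM in the Ntoco shRNA libraries, 2765 and 1032 CPM in the vector libraries, with 766 and 1714 CPM in the Ntoco overexpression libraries (log2 ratio 1.79, SE 0.54, vector over control). The second Ntoco shRNA library thus lay above the lower vector library. Tap1, a subunit of the peptide transporter, had 41.1 and 60.7 CPM against 247 and 186 CPM (log2 ratio 2.09, SE 0.44) and passed with the 4 libraries and with DESeq2. The immunoproteasome subunits Psmb8 (2.06, SE 0.52) and Psmb9 (1.31, SE 0.51) and the heavy chain H2-K1 (1.79, SE 0.47) did not pass with the 4 libraries. Psmb8 and H2-K1 passed with DESeq2. H2-Q4 and Psme2, a proteasome activator, had log2 ratios of 2.35 (SE 0.60) and 1.62 (SE 0.45). Class I heavy chains are near-identical, so their separate counts are uncertain. The list median relative to the control mean was 1.63 and 0.92 in the vector libraries, against 0.83 and 0.90 in the Ntoco shRNA libraries.

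Most chemokines and cytokines that are NF-kB targets lay higher in both vector libraries than in both control libraries. Of 21 such secreted factors with a row, 18 were higher in both vector libraries and 0 lower, with a median log2 ratio of 2.80 over 17 tested, and 5 passed with the 4 libraries and 5 with DESeq2. Of the 17, 2 were tested only because they reached the count filter in the vector group, and these were bound to be higher. Ccl5, which draws T cells and is also interferon-induced, had 0.524 and 0.985 CPM in the control libraries against 48.6 and 58.2 CPM in the vector libraries (log2 ratio 6.13, SE 1.47). Cxcl10, a classic interferon-induced chemokine, had 0.734 and 1.55 against 46.6 and 195 CPM (log2 ratio 6.71, SE 1.45). These 2 genes passed with the 4 libraries and with DESeq2, and overexpression library 2 was high as well, with 71.1 CPM of Ccl5 and 48.7 CPM of Cxcl10. Csf1, the macrophage growth factor, had 3399.7 and 2945 CPM in the control libraries against 8142 and 12865 CPM in the vector libraries (log2 ratio 1.73, SE 0.44), and passed with DESeq2.

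Other chemokines were also high in an Ntoco shRNA library. Ccl2, which draws monocytes, was counted at 205 and 45.1 CPM in the control libraries, 85.1 and 914 CPM in the Ntoco shRNA libraries, 422 and 1389 CPM in the vector libraries, with 468 and 422 CPM in the Ntoco overexpression libraries (log2 ratio 2.86, SE 1.13, vector over control). Cxcl1, which draws neutrophils and passed with the 4 libraries, was counted at 27.8 and 28.4 CPM in the control libraries, 9.13 and 288 CPM in the Ntoco shRNA libraries and 122 and 343 CPM in the vector libraries (log2 ratio 3.05, SE 1.28). For both genes Ntoco shRNA library 2 lay between the vector libraries and library 1 within or below the control range. Relative to the control mean, the list lay at medians of 1.83 and 2.77 in the vector libraries, -0.53 and 0.97 in the Ntoco shRNA libraries and 0.96 and 0.72 in the overexpression libraries. Il6 was low in all libraries and reached the count filter only in the vector group, so it was bound to be higher there. It had 0.157 and 0.467 CPM against 1.33 and 4.61 CPM (log2 ratio 3.22, SE 1.11). Il1a had a log2 ratio of 2.59 (SE 0.84) and passed with the 4 libraries and with DESeq2, and Lif had 1.55 (SE 0.47) and passed with DESeq2.

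Among NF-kB subunits and regulators, 14 of 20 genes were higher in both vector libraries and 0 lower, with a median log2 ratio of 0.53. With the 4 libraries 0 passed, and with DESeq2 2 passed. The subunit Nfkb1 had 98.4 and 97.2 CPM in the control libraries against 137 and 193 CPM in the vector libraries (log2 ratio 0.75, SE 0.30), and Rela had 112 and 116 against 124 and 119.9 CPM (log2 ratio 0.09, SE 0.17). Nfkb2, a subunit named after its values were seen, had 76.0 and 69.0 CPM against 119.9 and 176 CPM (log2 ratio 1.03, SE 0.42), without overlap. The inhibitor Nfkbia, itself an NF-kB target, had 43.0 and 45.3 against 80.8 and 108 CPM (log2 ratio 1.10, SE 0.55). The 2 that passed with DESeq2 were the non-canonical subunit Relb (1.94, SE 0.64) and the inhibitor Nfkbie (1.57, SE 0.43). Tnfaip3, a feedback deubiquitinase, had 1.18 (SE 0.64). An NF-kB motif of GGGA, any base and TTTCC, on either strand, was in 4 of 15 chemokine and cytokine windows (26.7%) and 3 of 16 regulator windows (18.8%), against 0.505% of tested genes.

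Acute-phase and complement genes were mostly too low to test. Of 19 with a row, 10 were not tested, 7 were higher and 1 was lower in both vector libraries, and the median log2 ratio over 9 tested was 1.03. Lcn2, the siderophore-binding lipocalin named in the series title, was counted at 15.0 and 16.8 CPM in the control libraries, 14.3 and 907 CPM in the Ntoco shRNA libraries, 228 and 66.2 CPM in the vector libraries, with 29.1 and 28.5 CPM in the Ntoco overexpression libraries (log2 ratio 3.21, SE 1.43, vector over control). The highest value by far was in an Ntoco shRNA library, and Lcn2 passed in none of the 3 fits. C3, the central complement component, had 1.89 and 1.30 CPM against 10.4 and 6.58 CPM (log2 ratio 2.41, SE 0.62), and the complement protease C1ra 18.8 and 19.4 against 46.3 and 31.7 CPM (log2 ratio 1.03, SE 0.26). C3 and C1ra passed with DESeq2. Saa3 overlapped between the groups at 0.891 and 2.33 CPM against 12.4 and 2.33 CPM (log2 ratio 2.18, SE 1.37).

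Most genes of cholesterol synthesis lay lower in both vector libraries than in both control libraries, but few passed a test. Of 23 with a row, 19 were lower and 0 higher in both vector libraries, with a median log2 ratio of -1.24 over 22 tested, and 1 passed with the 4 libraries and 2 with DESeq2. Hmgcs1, which makes the precursor of mevalonate, was counted at 321 and 189 CPM in the control libraries, 298 and 104 CPM in the Ntoco shRNA libraries, 84.9 and 83.9 CPM in the vector libraries, with 246 and 229 CPM in the Ntoco overexpression libraries (log2 ratio -1.59, SE 0.46, vector over control). The vector libraries were the lowest 2 of the 8, followed by Ntoco shRNA library 2. The sterol demethylase Cyp51 had 1114 and 681 CPM against 224 and 379 CPM (log2 ratio -1.57, SE 0.59). Squalene epoxidase, Sqle, had a log2 ratio of -1.23 (SE 0.45) and squalene synthase, Fdft1, one of -1.96 (SE 0.70). The methyl sterol oxidase Msmo1 (-1.25, SE 0.36) and Hmgcs1 were the 2 that passed with DESeq2. The gene that passed with the 4 libraries was Insig1, the sterol-sensing retention factor, named after its values were seen, with 274 and 215 CPM against 74.5 and 99.0 CPM (log2 ratio -1.50, SE 0.59).

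The difference was uneven between libraries and was also seen in Ntoco shRNA library 2. Relative to the control mean, the median of the cholesterol genes was 0.32 and -0.32 in the control libraries, -1.70 and -0.82 in the vector libraries, 0.20 and -1.42 in the Ntoco shRNA libraries, and 0.19 and -0.07 in the overexpression libraries. Vector library 1 and Ntoco shRNA library 2 were also the lowest for the fibroblast marker sum, at 1133 and 1459 FPKM. The part of what moves this sum in the cholesterol gene values was not tested. The Hmgcs1 promoter is shown because it holds the letters of a sterol response element, the site of the SREBP factors. It is chr13:119690201-119690350 on the plus strand (RefSeq, GRCm38.p6), with the match to TCACNCCAC in capitals.
Hmgcs1: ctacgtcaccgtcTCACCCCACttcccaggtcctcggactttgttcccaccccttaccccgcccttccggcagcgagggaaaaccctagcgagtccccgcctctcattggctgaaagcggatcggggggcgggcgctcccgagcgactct
This was the only 1 of 17 windows of the list with those letters on either strand, against 1.41% of tested genes. The shorter letters of a CCAAT box, in either orientation (CCAAT or ATTGG), were in 16 of 17 windows (94.1%), against 43.7% of tested genes.

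Fatty acid synthesis genes showed a smaller difference in the same direction. Of 15 with a row, 11 were lower and 2 higher in both vector libraries, the median log2 ratio was -0.79, and 0 passed with the 4 libraries or with DESeq2. The desaturase gene Scd2 had 2055 and 2208 CPM in the control libraries against 216 and 891 CPM in the vector libraries (log2 ratio -1.95, SE 0.91), with a wide gap between the vector libraries. Fatty acid synthase, Fasn, had 1424 and 832 against 612 and 766 CPM (log2 ratio -0.71, SE 0.55), and Scd1 553 and 608 against 209 and 427 CPM (log2 ratio -0.87, SE 0.59). The regulator Srebf1 had -1.47 (SE 0.60) and the citrate lyase Acly -0.93 (SE 0.41).

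Of 29 mitosis genes, 18 lay lower and 0 higher in both vector libraries than in both control libraries, while 11 overlapped. The median log2 ratio was -0.66, and 0 passed with the 4 libraries and 1 with DESeq2. That gene was Incenp, a scaffold of the chromosomal passenger complex, with 175 and 151 CPM in the control libraries, 138 and 73.5 CPM in the Ntoco shRNA libraries, 46.2 and 70.3 CPM in the vector libraries, with 82.2 and 99.8 CPM in the Ntoco overexpression libraries (log2 ratio -1.48, SE 0.34, vector over control). The mitotic kinase Plk1 had 123 and 94.6 CPM against 31.4 and 61.2 CPM (log2 ratio -1.23, SE 0.45), and the proliferation marker Mki67 452 and 278 against 101 and 236 CPM (log2 ratio -1.11, SE 0.58). Topoisomerase Top2a had 699 and 599 CPM in the control libraries against 285 and 409 CPM in the vector libraries (log2 ratio -0.90, SE 0.30). Cdk1 had a log2 ratio of -0.50 (SE 0.20), and Ccnb1, its cyclin partner, overlapped between the groups (-0.60, SE 0.40). Aurkb (-1.54, SE 0.55) and Kif20a (-1.45, SE 0.54) were lower in both vector libraries. The list median relative to the control mean was -1.21 and -0.32 in the vector libraries, against -0.05 and -1.03 in the Ntoco shRNA libraries. Vector library 1 and Ntoco shRNA library 2, the lowest here, were also the lowest for the fibroblast marker sum, and its part in the mitosis values was not tested.

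DNA replication genes differed by less. Of 30 genes, 14 were lower and 1 higher in both vector libraries while 15 overlapped, the median log2 ratio was -0.28, and 0 passed with the 4 libraries or with DESeq2. The helicase gene Mcm2 had 274 and 166 CPM against 222 and 179 CPM (log2 ratio -0.13, SE 0.31), and it was 0.27 without control library 1 and 0.016 without vector library 2. Pcna, the polymerase clamp, had -0.26 (SE 0.21) and the reductase subunit Rrm2 -0.38 (SE 0.29), and Rrm2 turned to 0.20 without control library 1. Among further members with the smallest p were Uhrf1, which maintains DNA methylation (-1.16, SE 0.34), the flap nuclease Fen1 (-1.19, SE 0.36) and the ligase Lig1 (-1.20, SE 0.43). The lowest log2 ratio of the list was that of the thymidine kinase Tk1, named after its values were seen, with 121 and 76.3 CPM against 19.6 and 50.6 CPM (log2 ratio -1.49, SE 0.60).

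**Figure D3:**
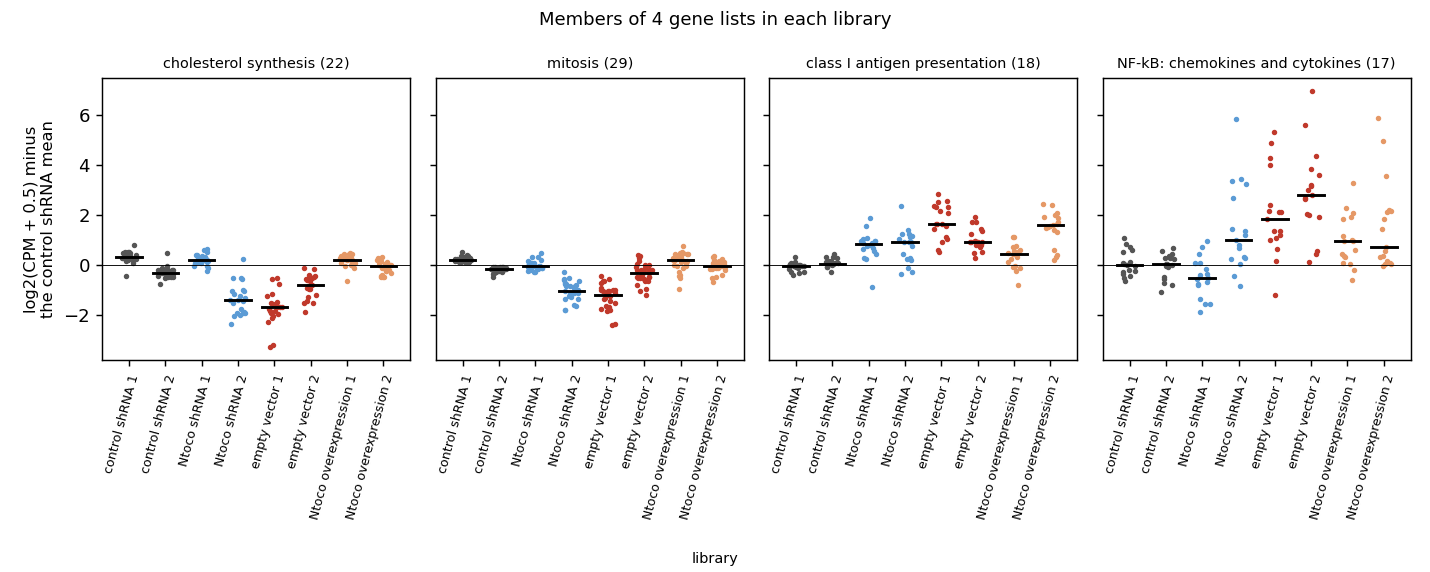
Members of 4 gene lists in each library, as log2(CPM + 0.5) minus the control shRNA mean, with 1 point per gene and a black bar at the median. Cholesterol synthesis genes are lowest in vector library 1 (median -1.70) and Ntoco shRNA library 2 (-1.42), while the NF-kB chemokines and cytokines are highest in vector library 2 (2.77).

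Several genes with the smallest p lay outside the gene lists on interferon. Txnip, which binds thioredoxin and limits glucose uptake (Entrez Gene 56338, GRCm38.p6 chromosome 3, 96557957 to 96561857), was counted at 45.4 and 49.6 CPM in the control libraries, 344 and 266 CPM in the vector libraries, 183 and 483 CPM in the Ntoco shRNA libraries and 194 and 162 CPM in the Ntoco overexpression libraries (log2 ratio 2.68, SE 0.43, vector over control). The control libraries were the lowest of the 8, and all 6 libraries of the other groups lay well above them. The TGF-beta-induced factor Klf10 had 63.2 and 47.6 CPM against 134 and 138 CPM (log2 ratio 1.30, SE 0.24). The gelatinase Mmp2 had 6.66 and 8.45 CPM against 27 and 22.8 CPM (log2 ratio 1.72, SE 0.31). Txnip passed with the 4 libraries and with DESeq2, and Klf10 and Mmp2 passed with DESeq2. Trim34b, a TRIM ligase like those above that is not in the list and has a close copy in Trim34a, had 1.78 and 3.01 CPM against 42.6 and 73.5 CPM (log2 ratio 4.59, SE 0.88) and passed in both fits.

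The 10 genes lower with the smallest p were led by Egln2, a prolyl hydroxylase that marks HIF for decay (Entrez Gene 112406, GRCm38.p6 chromosome 7, 27158658 to 27166802). Its level was 55.9 and 63.4 CPM in the control libraries, 50.2 and 42.9 CPM in the Ntoco shRNA libraries, 20.7 and 21.9 CPM in the vector libraries, with 34.8 and 38.0 CPM in the Ntoco overexpression libraries. The vector libraries were the lowest of the 8, the overexpression libraries the next and the control libraries the highest. The log2 ratio of vector over control was -1.49 (SE 0.20, edgeR adjusted p 0.339, and 0.0357 with only the 4 libraries). The histone chaperone gene Hira was at 102 and 90.4 CPM in the control libraries, 36.5 and 37.1 CPM in the vector libraries, with 46.3 and 73.1 CPM where Ntoco was overexpressed (log2 ratio -1.38, SE 0.28, vector over control). Fbxo9, an F-box ubiquitin ligase subunit, had 32.4 and 38.5 CPM against 6.23 and 4.61 CPM (log2 ratio -2.71, SE 0.55). Egln2, Hira and Fbxo9 passed with the 4 libraries and with DESeq2. The metalloprotease Adam33 had 7.50 and 6.22 CPM against 1.39 and 1.81 CPM (log2 ratio -2.10, SE 0.42), but it was also low in the Ntoco shRNA libraries at 1.89 and 2.17 CPM. The log2 ratio was -1.48 (SE 0.31) for the mitotic kinesin Kif18b and -1.44 (SE 0.30) for the cohesin protease Espl1. It was -1.72 for Abhd15, -1.12 for Lrch4, -1.60 for Islr and -1.29 for Zbtb12, each with a standard error between 0.23 and 0.35. These 7 genes passed with DESeq2 and not with the 4 libraries.

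Stress and growth lists had medians closer to that of all genes. Over all rows, 21.1% of genes were higher and 21.4% lower in both vector libraries. YAP targets, which report on the Hippo pathway, had 9 of 13 genes higher in both vector libraries and 0 lower, a median log2 ratio of 0.51, and 0 passing with the 4 libraries and 2 with DESeq2. These were the nuclear cofactor Ankrd1, with 154 and 156 CPM against 292 and 319.5 CPM (log2 ratio 0.98, SE 0.19), and Amotl2, with 192 and 193 against 555 and 356 CPM (log2 ratio 1.24, SE 0.31). Ccn1 overlapped between the groups, with 242 and 1308 CPM against 840.1 and 339 CPM (-0.40, SE 0.72). Without control library 2 it was 1.28, and without vector library 2 it was 0.12. Among unfolded protein response and ATF4 targets, 10 of 24 were higher and 0 lower in both vector libraries, with a median of 0.43. The glutathione-degrading enzyme Chac1 passed with DESeq2 (32.0 and 52.6 against 136 and 93.6 CPM, log2 ratio 1.44, SE 0.40). The chaperone Hspa5 had 0.55 (SE 0.40), which was -0.11 without vector library 1, and Ddit3 had 1.17 (SE 0.43). Immediate early genes were split, with 3 of 31 higher, 4 lower and 24 overlapping, and Fos and Egr1 differed mainly between the control libraries. Fos had 41.7 and 456 CPM in the control libraries against 47.7 and 46.3 CPM in the vector libraries (log2 ratio -2.40, SE 1.12), and Egr1 259.8 and 1681 against 240.1 and 682 CPM (log2 ratio -1.07, SE 1.01). Without control library 2 the log2 ratios were 0.17 for Fos and 0.82 for Egr1. Fosl1, an AP-1 subunit, had 130.3 and 74.5 CPM against 206 and 277 CPM (log2 ratio 1.24, SE 0.30) and passed with DESeq2.

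For oxidative stress, the NRF2 and glutathione list had 3 of 20 genes higher and 11 lower in both vector libraries, with a median log2 ratio of -0.31. With the 4 libraries 1 passed, and with DESeq2 3 passed. The gene that passed with the 4 libraries was Txnip, above, a thioredoxin-binding protein in the list that is not a glutathione gene or classic NRF2 target. Hmox1, the haem oxygenase, had 61.6 and 51.8 CPM against 135 and 111 CPM (log2 ratio 1.12, SE 0.31), and the glutathione transferase Gstm1 281 and 338 against 139 and 190.2 CPM (log2 ratio -0.91, SE 0.23). Both passed with DESeq2. The quinone reductase Nqo1 was lower in both vector libraries at 8.07 and 8.40 CPM against 1.86 and 5.08 CPM (log2 ratio -1.24, SE 0.49). The hypoxia list had 5 of 26 higher and 11 lower, with a median of -0.22. The p53 targets had 7 of 18 higher and 2 lower, with a median of 0.52. In either list, 0 genes passed with the 4 libraries or with DESeq2. Over all rows, 21.1% of genes were higher and 21.4% lower in both vector libraries, and over the genes tested 24.8% and 26.5%. The p53 target Cdkn1a overlapped at 58.0 and 98.8 CPM against 294 and 71.9 CPM (log2 ratio 1.22, SE 0.66), and was -0.13 without vector library 1. Extracellular matrix genes had 4 of 25 higher and 9 lower in both vector libraries, with a median of -0.48 over 19 tested. Collagen Col1a1 had 706 and 611 CPM against 235 and 417 CPM (log2 ratio -1.01, SE 0.65), and the protease inhibitor Timp3 0.262 and 1.71 against 11.7 and 16 CPM (log2 ratio 3.80, SE 1.06). Mmp2, above, and Timp3 were the 2 of this list that passed with DESeq2.

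Genes named in the series title or central to ferroptosis, an iron-driven form of cell death, showed a median log2 ratio of 0.02 over 12 tested. Of these, 4 were higher and 1 lower in both vector libraries, against 24.8% and 26.5% of all genes tested. With the 4 libraries or with DESeq2, 0 passed. The RNA-binding protein Hnrnpab had 792 and 478 CPM in the control libraries against 638 and 524 CPM in the vector libraries (log2 ratio -0.13, SE 0.26). The lipid peroxide reductase Gpx4 was at 282 and 253 CPM in the control libraries, with a mean of 259.9 ± 14.1 CPM (SD, n = 2) in the vector libraries (log2 ratio -0.04, SE 0.19), and the lipid ligase Acsl4 68.0 and 63.6 against 56.1 and 67.6 CPM (log2 ratio -0.09, SE 0.18). All 3 overlapped between the groups. Their signs turned when 1 library was left out: Hnrnpab was 0.28 without control library 1 and 0.0062 without vector library 2, Gpx4 0.032 without control library 1 and 0.013 without vector library 1, and Acsl4 0.037 without vector library 1. The cystine transporter Slc7a11 was higher in both vector libraries at 23 and 41.4 CPM against 102 and 76.3 CPM (log2 ratio 1.47, SE 0.52).

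**Figure D4:**
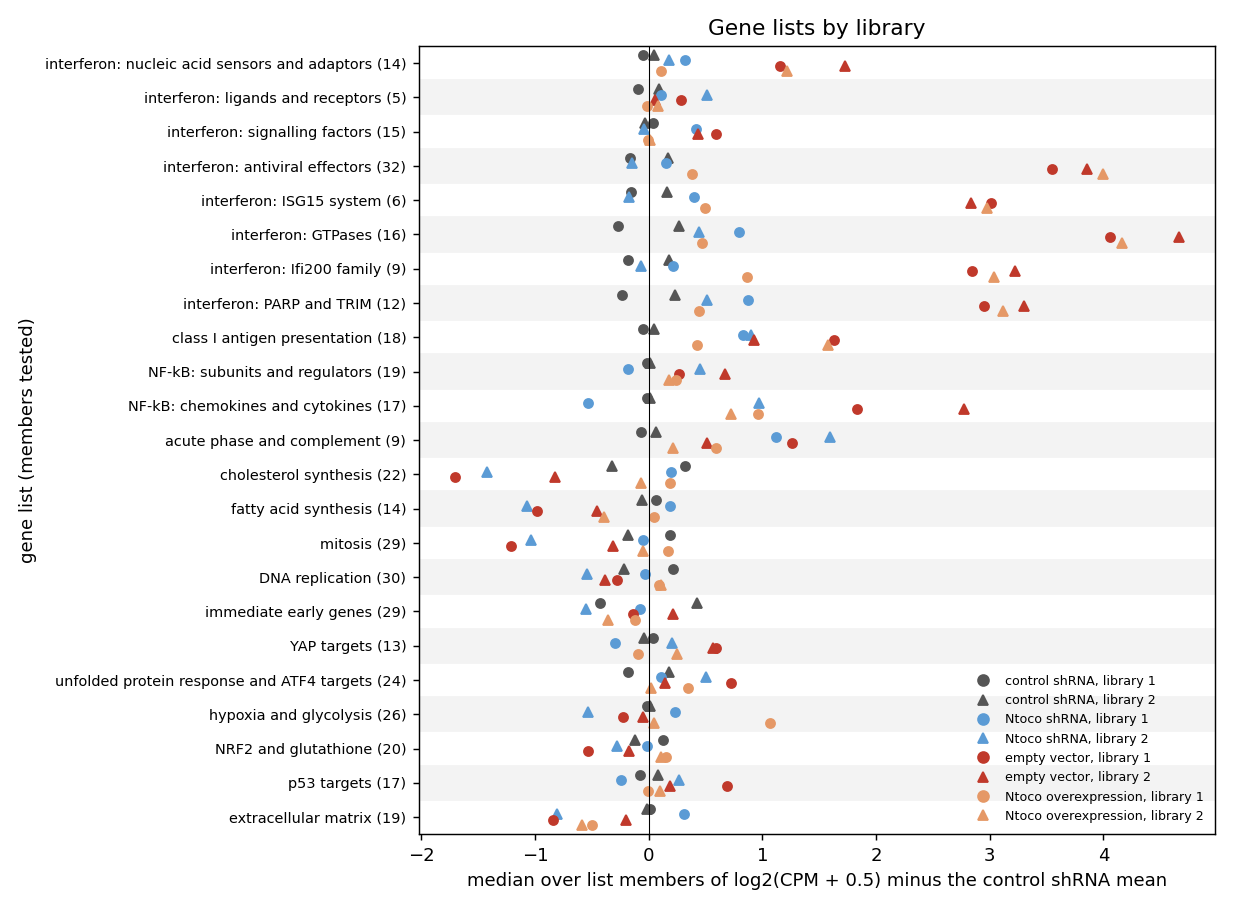
Median over the tested members of each gene list of log2(CPM + 0.5) minus the control shRNA mean (horizontal), in each of the 8 libraries, with circles for library 1 and triangles for library 2. The interferon effector lists separate the vector libraries and Ntoco overexpression library 2 (antiviral effectors 3.55, 3.86 and 3.99) from the other 5 libraries, which lie between -0.17 and 0.38 for that list.

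When both groups made with a vector (empty vector and Ntoco overexpression) were set against both shRNA groups, edgeR called 0 of 11899 genes (0%), with a lowest adjusted p of 0.195 and 1512 genes at an unadjusted p under 0.05 (12.7%). DESeq2 called 318 (2.67%), 219 higher (1.84%) and 99 lower (0.832%). The median log2 ratio was 3.56 for antiviral effectors, 4.12 for GTPases and 1.22 for NF-kB chemokines and cytokines in this contrast. The 2 overexpression libraries did not share the interferon difference. Relative to the control mean, antiviral effectors lay at 0.38 and 3.99 and GTPases at 0.47 and 4.16 in overexpression libraries 1 and 2. For cholesterol synthesis it was -0.38 and for mitosis -0.10, smaller than with the empty vector alone. The same control and vector libraries enter both contrasts, so these values are not independent of those above.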

How the data were processed

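RNA was sequenced in 4 groups of HT22 cells, with 2 libraries per group in the tables. TRIzol extraction and a stranded library kit with polyadenylated RNA selection are named per the labels' protocols. The deposited tables give raw read counts by gene as whole numbers, and the authors' FPKM values (fragments scaled to gene length and library size), which served only for marker levels. Trimmomatic, HISAT2, Cufflinks, HTSeq and DESeq, with the build mm10 (GRCm38), are listed in the submitters' processing notes. The sources used here do not give versions, roles, annotation or strand setting, so overlapping genes on opposite strands cannot be told apart. Columns went to groups by the construct that their names give.

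Library totals ran from 18452588 to 19859041 counts. Genes needed 10 counts in 2 or more of the 4 compared libraries. Genes were tested with the quasi-likelihood F-test of edgeR on the counts of all 8 libraries with TMM factors (residual degrees of freedom 4, biological coefficient of variation 27.8%), with Benjamini-Hochberg adjustment and a threshold of 0.05. CPM values carry the TMM factors, and fitted log2 ratios have a prior count of 0.125. Each SE is the absolute log2 ratio divided by the square root of the F value from the fit of all 8 libraries. For Ifit1 it was 1.57, against 0.52 with only the 4 compared libraries. Alternatives were DESeq2, only the compared libraries, other factors and filters, a replicate block and leaving out libraries. The test was checked on simulated counts with the same spread for all genes and groups. These lack the gap between the overexpression libraries, so the check does not cover it. edgeR 4.0.16, DESeq2 1.42.0 and limma 3.58.1 ran in R 4.3.3, and matplotlib 3.10.9, pandas 2.3.3 and numpy 2.4.6 were used for tables and plots. Of 16846 rows, 16737 matched RefSeq (GRCm38.p6), the source of coordinates and promoter sequences.

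The members and the 30 gene lists were chosen with earlier results of these data known. Named genes were the 10 with the smallest p in each direction among those whose libraries did not overlap, and in each list the key genes and up to 3 further members with the smallest p. Some genes that meet this rule are not reported here. Genes named beyond it were chosen after their values were seen. The 6 marker lists for other cell types covered neurons, astrocytes, microglia and macrophages, the oligodendrocyte lineage, endothelium and pericytes, and fibroblasts and meninges.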

Additional observations from a re-analysis of the deposited data

How the results depend on the processing

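For the empty vector against control shRNA, 0 genes were called with RLE factors, with upper-quartile factors, with edgeR's filterByExpr and with a replicate block. The count was 129 with only the 4 compared libraries, 283 with DESeq2 and 3 without a filter on low counts. In alternatives chosen after seeing the data, leaving out both overexpression libraries gave 96 and a replicate block with the numbers of the vector libraries crossed gave 1. Leaving out 1 library at a time gave between 0 and 98 genes, and the counts above 0 were those without overexpression library 1 (98) and library 2 (95). Where this leaves a group with 1 library, that library is assumed to vary like the others. For both vector groups against both shRNA groups, the count was 318 with DESeq2, 98 without a filter and 0 with the replicate block and the other settings, and between 0 and 127 with 1 library left out (127 without overexpression library 1 and 38 without library 2). Replicate numbers did not pair the libraries: the correlation of library differences over genes was -0.13 between the control and vector groups, and -0.37 to 0.37 over all pairs of groups. With 1 library left out, 11 named genes turned sign, over log2 ratios of -0.23 to 0.037 for Acsl4, -1.19 to 1.28 for Ccn1, -0.13 to 1.90 for Cdkn1a, -2.01 to 0.82 for Egr1, -3.28 to 0.17 for Fos, -0.11 to 0.032 for Gpx4, -0.45 to 0.28 for Hnrnpab, -0.11 to 1.01 for Hspa5, -0.049 to 0.29 for Ifnar1, -0.45 to 0.27 for Mcm2 and -0.79 to 0.20 for Rrm2. Over all named genes under these settings, 1419 values kept their direction and their side of the threshold, 150 kept their direction and passed it, and 15 turned sign. Of the list medians, 277 moved by less than the spread between libraries and 53 by more, and 9 changed sign. At this depth, 4947 genes missed the count filter and could not be tested.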

Other observations

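Of the 129 genes that passed with only the 4 compared libraries in the model, 80 were in one of the gene lists and 49 were not, 40 higher and 9 lower in the vector cells. The genes named here were chosen after their values were seen. Apol9a and Apol9b, near-identical apolipoprotein L genes whose reads may have been split, were both among them. Apol9a had 6.13 and 9.49 CPM in the control libraries against 337 and 359 CPM in the vector libraries (log2 ratio 5.48, SE 1.08), and Apol9b 5.45 and 8.87 against 383 and 413 CPM (log2 ratio 5.79, SE 1.17). Both were higher in the vector libraries than in any other library. The RNA helicase Ddx60 had 0.315 and 1.19 CPM in the control libraries against 57.2 and 65.7 CPM in the vector libraries (log2 ratio 6.33, SE 1.59), and Samd9l, an antiviral growth restriction factor, 15.6 and 21.7 against 168 and 306 CPM (log2 ratio 3.67, SE 1.01). The secreted glycoprotein Lgals3bp had 114 and 157 CPM against 660.2 and 623 CPM (log2 ratio 2.24, SE 0.66). The surface protein Ly6a had 59.1 and 47.8 CPM in the control libraries against 325 and 209.9 CPM in the vector libraries, and its relative Ly6e 210.1 and 249 against 801 and 629 CPM. Thbd, the thrombin receptor thrombomodulin, had 14.4 and 14.3 CPM against 70.6 and 55.2 CPM (log2 ratio 2.13, SE 0.53).

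The 9 lower genes outside the lists were Asic1, Cdkn2c, Egln2, Fbxo9, Gas1, Hira, Klhdc7a, Mrgprf and Ptpra. Cdkn2c, an inhibitor of the kinases Cdk4 and Cdk6, was counted at 108 and 83.4 CPM in the control libraries, 118 and 33.4 CPM in the Ntoco shRNA libraries, 21.9 and 24.9 CPM in the vector libraries, with 77.8 and 62.7 CPM in the Ntoco overexpression libraries (log2 ratio -2.03, SE 0.51, vector over control). The proton-gated channel Asic1 had 78.7 and 90.3 CPM against 32.9 and 33.6 CPM (log2 ratio -1.35, SE 0.36), and the phosphatase Ptpra 159 and 166 against 49.8 and 68.9 CPM (log2 ratio -1.45, SE 0.38). Gas1, a membrane protein of growth arrest and hedgehog signalling, was counted at 36.4 and 44.2 CPM in the control libraries, 109 and 18.4 CPM in the Ntoco shRNA libraries and 13.1 and 10.7 CPM in the vector libraries (log2 ratio -1.76, SE 0.70). For 6 of the 9 genes (Asic1, Cdkn2c, Gas1, Klhdc7a, Mrgprf and Ptpra), Ntoco shRNA library 2 lay below both control libraries as well, and library 1 above them. Library 2 was also below both control libraries for Egln2, Fbxo9 and Hira. For these, library 1 was below both for Egln2 and Fbxo9 and between them for Hira.

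Of the other marker lists, astrocyte markers summed to 41.7 and 39.8 FPKM in the control libraries and 13.8 and 29.1 FPKM in the vector libraries. Oligodendrocyte lineage markers summed to 47.7 and 34.7 FPKM against 26.6 and 55.9 FPKM, and markers of endothelium and pericytes to 40.0 and 44.0 FPKM against 17.3 and 41.5 FPKM. Nearly all of the last sum was Pdgfrb, a growth factor receptor of mural and mesenchymal cells, at 39.3 and 43.4 FPKM against 16.8 and 40.4 FPKM, while the endothelial markers Pecam1, Cdh5, Kdr and Tek stayed below 1 FPKM in all 4 libraries. The astrocyte sum came mainly from Gja1, S100b and Aldh1l1 and the oligodendrocyte sum from Cspg4.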
